A study of Mus musculus with 20 samples.

Results

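Chemokines and their receptors were followed as 56 genes, 37 ligands and 19 receptors, in bulk RNA-seq libraries of 10 mouse tissues. The members were all symbols of the families Ccl, Cxcl, Cx3cl, Xcl, Ccr, Cxcr, Cx3cr, Xcr and Ackr followed by a number and at most 1 letter, each present on a single line of the table, with 5 such symbols left out by name. They were chosen from 24769 genes by name, with earlier results of these data known. Brain, heart, intestine, kidney, liver, lung, ovary, spleen, thymus and uterus of wild-type mice were each measured in 1 library labelled DHEA and 1 labelled "sasame oil", called the control here. DHEA (dehydroepiandrosterone) is an adrenal steroid that tissues convert to androgens and oestrogens. The sources used here do not give the dose, duration, age, strain, number of animals or sampled part of each organ. They also do not say which tissues came from the same animal, so the spread between libraries may be between animals or technical.

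Chemokines are small secreted proteins that guide migrating cells along concentration gradients. They act on G protein-coupled receptors of the Ccr, Cxcr, Cx3cr and Xcr families, while the atypical receptors Ackr1 to Ackr4 bind ligand without classical G protein signalling and remove or transport it. Some ligands are made constantly and place lymphocytes and progenitors within organs, and others appear during inflammation and draw in monocytes, neutrophils or eosinophils.

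The libraries held 13201204 to 20667989 reads, recovered from the table of FPKM values (fragments per kilobase, a level scaled to gene length and to library size). A list of 4 marker genes for each tissue had its highest summed level in both libraries of that tissue for 10 of 10 tissues, so no library stood against its tissue label. The treatment label could not be checked this way, because no gene was targeted. A member counted as tested when its mean over the 20 libraries reached 1 FPKM, which 40 of the 56 members did, 25 ligands and 15 receptors. Of all 56 members, 33 reached 10 FPKM in a library, 8 reached 100 FPKM, 20 were above 0 in all 20 libraries and 7 stayed below 1 FPKM everywhere.

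**Figure D1:**
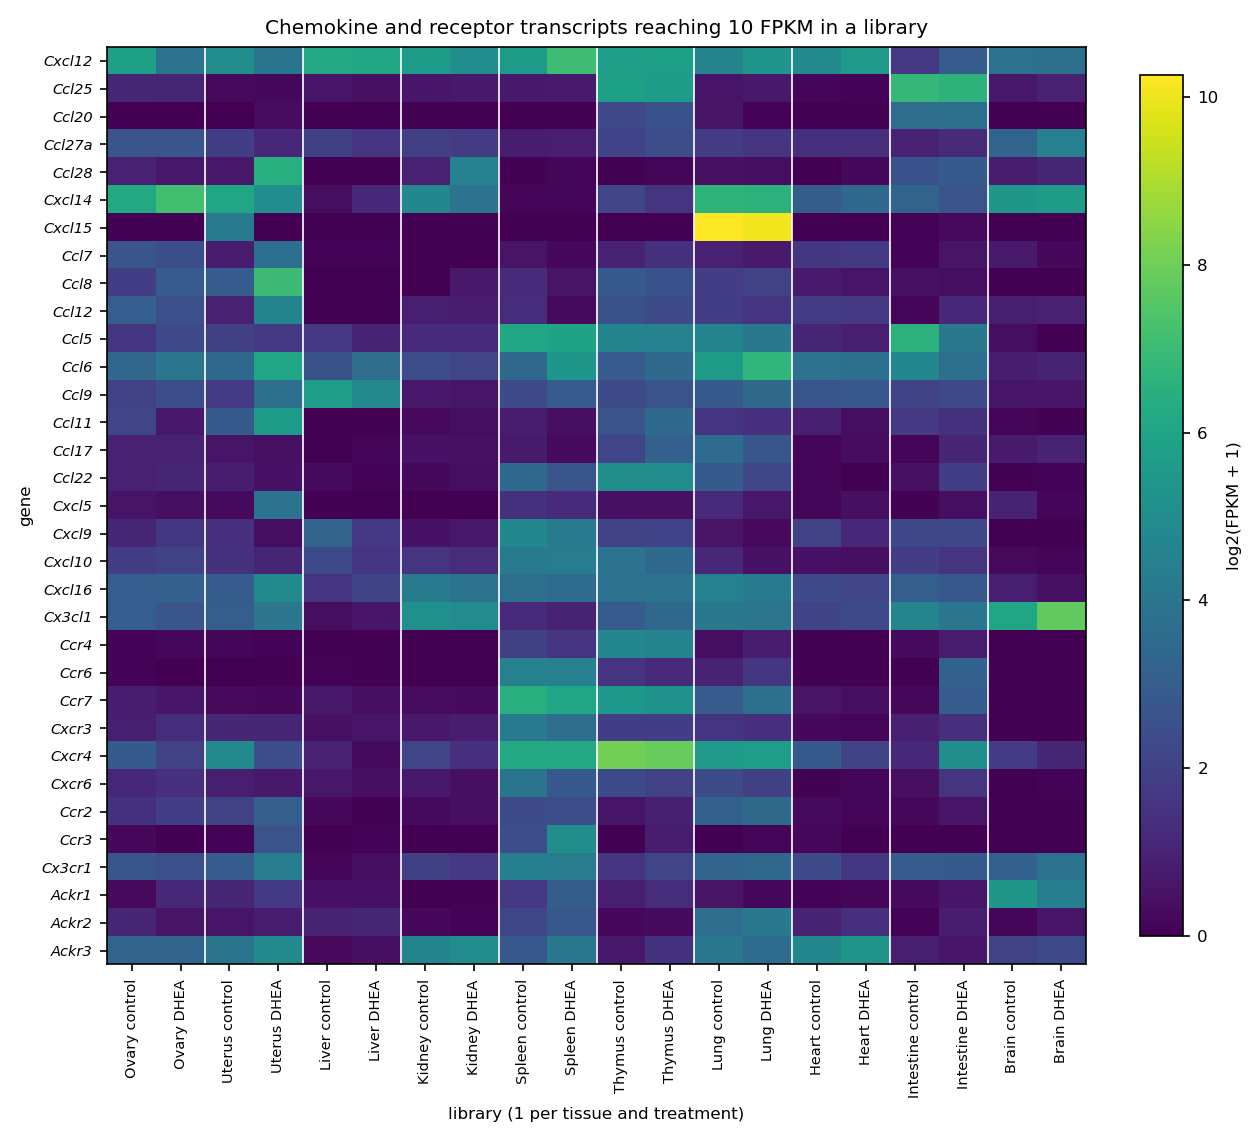
Levels of the 33 chemokine and receptor transcripts that reached 10 FPKM in a library (rows, by role from ligands to receptors) in the 20 libraries (columns, 1 per tissue and treatment), coloured by log2(FPKM + 1). Cxcl15 stands at 1221 and 1061 FPKM in the lung, while Cxcl12 is seen in every tissue.

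Which chemokines and receptors were high differed between tissues. The mean of each tissue was compared with the mean of the other 9 tissues in 1 limma fit over all genes, with the control and the DHEA library of a tissue taken as its replicates. A gene was called higher at a Benjamini-Hochberg adjusted p below 0.05 and a difference of at least 1 on the log2(FPKM + 1) scale. Of the 40 tested members, 20 were called higher in spleen, where 16.9% of all 14833 tested genes were called, 14 in lung (14.7% of all genes), 13 in thymus (20.2%) and 11 in uterus (11.8%). Brain had 5 (18%), intestine 4 (11%), ovary 3 (19.4%), kidney 3 (12.5%), liver 2 (8.04%) and heart 1 (9.33%). The spleen calls were 7 ligands and 13 receptors, the lung calls 7 and 7, the thymus calls 8 and 5, and the uterus calls 7 and 4. The mean that decided testing included the tissue compared, so a gene high in 1 tissue could be tested through that tissue alone. Cxcl5, for example, had a mean of 1.13 FPKM and stood at 13.8 in the DHEA uterus. The shares of all genes rest on the same filter. With no filter, 22 of 56 members were called in spleen, 14 in lung, 14 in thymus and 8 in uterus. The shares of all genes called with no filter were not computed, so these counts have no background beside them. In bulk tissue, a low level from fewer cells of a type and one from less RNA per cell cannot be told apart.

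**Figure D2:**
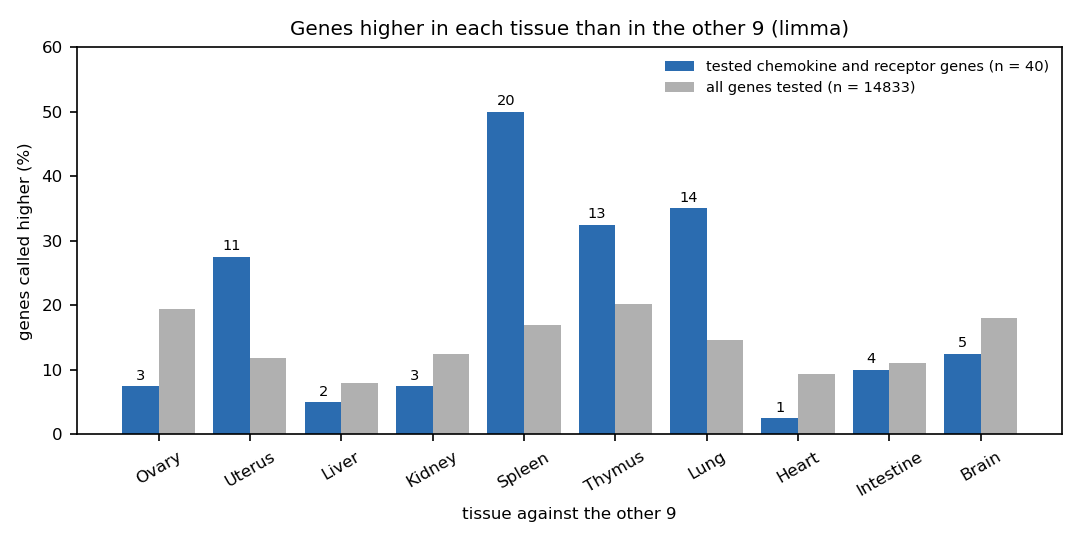
Share of the 40 tested chemokine and receptor genes (blue, count above the bar) and of all 14833 tested genes (grey) called higher in each tissue than in the other 9 by limma, in percent from 0. The blue bar is above the grey one most clearly in spleen, where 20 members were called beside 16.9% of all genes.

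Several of these counts rested on 1 library. The shares of all genes with the same libraries left out were not computed, so the moves below may not be particular to the members. Without the uterus control library 18 members were called in uterus, and without the uterus DHEA library 8 were, with Ccl28, Ccl7, Cx3cr1 and Cxcl5 among those lost and Ackr4 and Cxcl15 gained. Xcl1 was not called in uterus without the control library. Without the liver pair the uterus count was 7. The lung count was 9 without the lung control library, which ended the calls of Ackr3, Ccl22, Cxcl16, Cxcr4 and Cxcr6, and Ccr1, Ccr7 and Cxcr4 were lost there without the DHEA library. The ovary count was 1 without the ovary control library, where Ccl2 and Ccl7 were lost, and 5 without the uterus DHEA library. In liver, the call of Cxcl12 ended when either liver library was left out. In spleen, Ackr1, Cxcl12 and Cxcr4 were no longer called without the DHEA library, and Ccl4 and Ccr4 without the control library. In thymus, Ackr4 and Ccl11 were lost without the DHEA library and Cxcr6 without the control library. In kidney, Cxcl16 was lost without either library. The intestine count was 6 without either library, where Cx3cl1 was lost without the control library, and the heart count was 2 without the ovary pair.

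Among the ligands that organise lymphoid and haematopoietic tissue, Cxcl12, the ligand of Cxcr4 that retains stem cells and B cell precursors in bone marrow, was the one member above 1 FPKM in all 20 libraries. Its levels ran from 2.30 in the control intestine to 134 in the DHEA spleen, with a median of 35.8. Liver held 71.5 FPKM in control and 69.6 in DHEA, and intestine was called lower than the other tissues, at 2.30 and 6.88 FPKM (log2 difference -2.86, SE 0.48, adjusted p = 0.000275). Ccl25, which draws T cell progenitors to the thymus and plasma cells and T cells to the small intestine, was at 55.2 and 48.1 FPKM in thymus and at 113 and 98.8 in intestine. In the other 16 libraries it did not exceed 1.12 FPKM, so the levels of those tissues did not overlap with thymus or intestine. It was called higher in intestine by 5.57 (SE 0.11, adjusted p = 1.49e-12) and in thymus by 4.43 (SE 0.11, adjusted p = 5.2e-11).

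Ccl19 and the Ccl21 copies, which bring Ccr7-bearing T cells and dendritic cells into lymph nodes, were near the lower limit. Ccl19 reached 0.881 FPKM at most, in the control spleen, and Ccl21a 1.80, in the control lung. Ccl21b reached 2.44 in the control uterus and Ccl21d 0.0693 in the DHEA spleen. Mouse genomes carry near-identical copies of these genes and of Ccl27, and the sources used here do not say how reads matching several copies were counted. The values of Ccl19, Ccl21a, Ccl21b, Ccl21d, Ccl27a and Ccl27b are therefore uncertain and may be shared or lost between copies.

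The epithelial ligands were each led by a few organs. Cxcl15, also called lungkine, is a chemokine of bronchial epithelium that attracts neutrophils. It stood at 1221 FPKM in the control lung and 1061 in the DHEA lung, the highest levels of any member. It made up 78.9% of the summed ligand FPKM of the lung, and limma placed the lung 9.89 above the other tissues (SE 0.63, adjusted p = 1.81e-07). The other library with a clear level was the control uterus, at 18.4 FPKM. The RefSeq promoter of Cxcl15 is shown because this gene had the highest level of any member. The capitals mark a TATAAA box that starts 27 bases before the transcription start.
Cxcl15 promoter, chr5:90794284-90794583, plus strand, GRCm38.p6: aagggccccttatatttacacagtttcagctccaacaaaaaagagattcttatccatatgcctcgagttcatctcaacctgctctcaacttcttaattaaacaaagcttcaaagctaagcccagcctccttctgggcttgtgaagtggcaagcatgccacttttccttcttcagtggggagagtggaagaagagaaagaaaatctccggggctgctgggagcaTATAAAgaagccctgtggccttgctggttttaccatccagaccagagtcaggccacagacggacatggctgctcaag

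Cxcl14, a chemokine of epithelia and other tissues, was widespread. It was at 73.3 and 139.6 FPKM in ovary (control, then DHEA, as in the pairs that follow), 101 and 95.5 in lung, 63.8 and 32.0 in uterus and 41.9 and 48.3 in brain. All 4 tissues were called higher than the rest, and spleen was lowest, at 0.0965 and 0.099 FPKM. Ccl20, which calls Ccr6-bearing cells to gut lymphoid follicles, was at 11.7 and 12.8 FPKM in intestine and 3.82 and 5.07 in thymus, and both were called (3.40 and 1.96, adjusted p = 5.63e-10 and 1.59e-07). No other library exceeded 0.457 FPKM of Ccl20. Ccl27a, known best from skin, led in brain at 8.76 and 21.1 FPKM (2.20 above the others, SE 0.25, adjusted p = 9.35e-06).

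The membrane-anchored ligands and Xcl1 had different leading tissues. Cx3cl1, or fractalkine, is made by neurons and endothelium and binds Cx3cr1 on microglia and monocytes. It was at 65.0 and 217 FPKM in brain (3.91 above the other tissues, SE 0.33, adjusted p = 6.01e-07), 34.3 and 29.4 in kidney and 24.1 and 15.3 in intestine. Liver held the least, at 0.291 and 0.554 FPKM. Cxcl16, a scavenger receptor and ligand of Cxcr6, was above 0 in all libraries and led in lung (22 and 17.3 FPKM) and in the DHEA uterus (28.3). Xcl1, a product of NK and CD8 T cells that attracts cross-presenting dendritic cells, was called higher in spleen (6.86 and 5.65 FPKM), thymus (6.55 and 5.06) and uterus (8.82 and 1.68).

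Of the inflammatory ligands, Ccl6 and Ccl9, both macrophage products of the mouse, were above 0 in all 20 libraries, with medians of 11.1 and 4.32 FPKM. Ccl6 led in lung at 46.5 and 108 FPKM (2.79 above the others, SE 0.50, adjusted p = 0.00066), and Ccl9 in liver at 50.9 and 27.4 FPKM (3.09, SE 0.34, adjusted p = 5.08e-06). Ccl5, or RANTES, a product of activated T and NK cells, was called higher in spleen (70.4 and 58.3 FPKM), intestine (95.4 and 16.0), thymus (23.7 and 22.4) and lung (23.9 and 16.1). The Cxcr3 ligands Cxcl9 and Cxcl10, which interferon gamma induces, were highest in spleen, Cxcl9 at 27.0 and 17.6 FPKM and Cxcl10 at 18.2 and 19.3. Cxcl10 was also called in thymus (13.9 and 10.2 FPKM). Of the fixed list of 15 genes of the interferon gamma response, 14 were tested. Called higher were 12 in spleen (16.9% of all genes), 10 in thymus (20.2%), 6 in intestine (11%) and 5 in lung (14.7%). Irf1 was among them in these 4 tissues. Uterus and liver had 2 each (11.8% and 8.04%) and ovary 1 (19.4%). Called lower were 14 in brain (20%), 10 in kidney (11%), 9 in heart (26.1%) and 6 in liver (41%). Ovary had 4 lower (6.96%), and thymus and intestine 1 each (13.4% and 18.9%). Cxcl9 and Cxcl10 themselves were called lower in lung (-1.35 and -1.03) and in brain (-1.78 and -1.72). Cxcl9 was also called lower in kidney (-1.15) and Cxcl10 in heart (-1.45).

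The Ccr4 ligands Ccl17 and Ccl22, products of dendritic cells, differed in their leading organ. Ccl22 was at 32.5 and 31.7 FPKM in thymus, 10.3 and 5.26 in spleen and 6.51 and 3.50 in lung, all called higher than the rest. Ccl17 was called in lung (11.0 and 5.66 FPKM) and in thymus (3.38 and 7.77). The neutrophil ligands were low. Cxcl1 did not exceed 4.48 FPKM, Cxcl2 1.04 and Cxcl3 0.336, while Cxcl5 reached 13.8 in the DHEA uterus and stayed at or below 1.74 elsewhere. Ccl1, Ccl26 and Ccl27b never reached 1 FPKM.

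Among the receptors, Cxcr4 had the highest level. It was at 267 and 233 FPKM in thymus (4.92 above the other tissues, SE 0.76, adjusted p = 0.000122), 73.0 and 71.5 in spleen and 44.0 and 52.7 in lung. Ccr7, which steers naive lymphocytes and mature dendritic cells, was at 88.0 and 64.9 FPKM in spleen (4.85, SE 0.45, adjusted p = 3.15e-06) and 42.8 and 37.0 in thymus. Ccr4, a receptor of regulatory and type 2 helper T cells, was at 25.6 and 22.8 FPKM in thymus and at most 2.85 elsewhere. Ccr6, a receptor of B cells and Th17 cells, stood at 21.4 and 21.0 FPKM in spleen. Cxcr3, a receptor of effector T and NK cells, led in spleen too, at 17.4 and 11.6 FPKM. Ccr8 reached 6.14 FPKM in the control thymus and Ccr10 2.05 in the control intestine, and neither was tested.

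The myeloid receptors had different leading tissues. Ccr3, the eotaxin receptor of eosinophils, was above 0 in 12 of 20 libraries and was called in spleen alone, at 4.46 and 32.6 FPKM (3.52, SE 0.51, adjusted p = 9.53e-05). Ccr2, which lets monocytes leave bone marrow, was called higher in lung (8.09 and 10.5 FPKM), uterus (3.10 and 7.63) and spleen (4.01 and 4.48). Cx3cr1 was called in spleen (20.3 and 19.2 FPKM), uterus (6.91 and 19.0) and brain (8.16 and 14.1). Its call in brain ended without the brain DHEA library. Xcr1, the receptor of Xcl1, reached 4.57 FPKM in the control spleen, and Cxcr1 never reached 1 FPKM.

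Each atypical receptor led in a different organ. Ackr1, a receptor of venules, red cells and Purkinje neurons, stood at 41.8 and 19.6 FPKM in brain (4.11, SE 0.32, adjusted p = 2.33e-07) and did not exceed 7.04 elsewhere. Ackr2, a scavenger of inflammatory CC chemokines on lymphatic vessels, was at 11.8 and 16.4 FPKM in lung (3.07, SE 0.19, adjusted p = 1.78e-07). Ackr3, which scavenges Cxcl12, was at 26.9 and 38.6 FPKM in heart, 23.6 and 31.8 in kidney and 14.5 and 29.1 in uterus, all called. Ackr4, which scavenges Ccl19, Ccl21 and Ccl25, was called in thymus (2.89 and 8.58 FPKM).

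Ligands and their receptors did not always peak together. Over the 10 control tissues, log2(FPKM + 1) of Ccl22 and Ccr4 had a Pearson correlation of 0.89 and a Spearman correlation of 0.93, and over the 10 DHEA tissues 0.95 and 0.97, with thymus highest for both genes. For Cxcl10 and Cxcr3 the Pearson values were 0.82 and 0.87. For Cxcl12 and Cxcr4 they were 0.35 and 0.26, and the leading tissues differed, liver or spleen for the ligand and thymus for the receptor. For Ccl20 and Ccr6 they were -0.03 and 0.41. These are descriptions over tissues that share the 2 treatments, and both genes of a pair come from the same library.

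The list of 36 genes that carry the signal of chemokine receptors, such as G protein subunits, arrestins, receptor kinases and Rac regulators, had 35 tested members. Of these, 24 were called higher in spleen, 20 in thymus, 9 in brain, 8 in lung, 2 in ovary, 2 in intestine, 1 in uterus and 1 in heart, and 0 in liver and kidney, to be read beside the shares of all genes given above for the same call. Called lower were 27 in liver (41% of all genes), 25 in heart (26.1%), 20 in kidney (11%), 15 in brain (20%), 5 in ovary (6.96%), 3 in intestine (18.9%), 1 in thymus (13.4%) and 1 in uterus (5%), and 0 in spleen (11.4%) and lung (5.39%). The haematopoietic Rac regulators Dock2 and Vav1 and the kinase subunits Pik3cg and Pik3cd were among those called in both spleen and thymus. Of 8 related genes outside the naming rule, 6 were called higher in lung (14.7% of all genes). They were Pf4 (platelet factor 4), Ppbp (a platelet chemokine), Ccrl2, Cmklr1, Rarres2 and Dpp4, and none was called in lung alone. Pf4, Ppbp and Dpp4 were also called in spleen, Pf4 and Ccrl2 in heart, and Cmklr1 and Rarres2 in uterus. Rarres2 was called in ovary and liver too, and Dpp4 in intestine. Of the 8, 6 were called lower in brain, 4 in intestine, 3 in liver and 3 in thymus. Ovary and kidney had 2 lower each, and uterus, lung and heart 1 each.

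Across tissues, no member passed the test of DHEA against control. In the limma fit with tissue as a block, 0 of 40 members and 0% of all 14833 genes were called higher, and 0 members and 0% of all genes lower. At an unadjusted p below 0.05 there were 7 members and 1106 genes. The lowest adjusted p of a member was 0.663. Of the 40 members, 26 were higher and 14 lower in DHEA, with a median log2 difference of 0.09, beside 0.01 over all genes tested. The 7 members at an unadjusted p below 0.05 were Cxcl10 (-0.28, SE 0.09, lower in 8 of 10 tissues), Ccl4 (-0.35, SE 0.13, lower in 7), Ccr1 (0.52, SE 0.20, higher in 8), Ccl6 (0.70, SE 0.30, higher in 7), Xcl1 (-0.39, SE 0.17, lower in 7), Ackr3 (0.36, SE 0.16, higher in 7) and Ccr2 (0.25, SE 0.11, higher in 8). None passed the adjustment. Of the 35 tested signalling genes and the 14 interferon gamma response genes, 0 were called, at a lowest adjusted p of 0.663.

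Within a tissue there is 1 library per treatment, so the differences have no replicate check and no p-value. They are given as log2((DHEA + 1)/(control + 1)) of the FPKM values for members whose pair mean reached 1 FPKM, called higher or lower at 1 or beyond. A fold is the ratio of the FPKM values, with an exact 95% interval from the reads that covers counting error only. Of 229 pairs of a member and a tissue, 35 were higher in DHEA and 15 lower, that is 15.3% and 6.55%, beside 3.89% and 2.73% over all genes. At least 1 such difference was seen for 33 of 46 members measured. That count is per member over all tissues, and the matching share of all genes was not computed. The percentages above are per pair and cannot be set beside it. Without the uterus the 35 and 15 pairs became 20 and 9. The uterus gave 31 of the 229 pairs, and 7.76% of all genes were higher and 9.99% lower there. In 12 of the 35 the control library was below 1 FPKM, and in 5 of the 15 the DHEA library was.

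**Figure D3:**
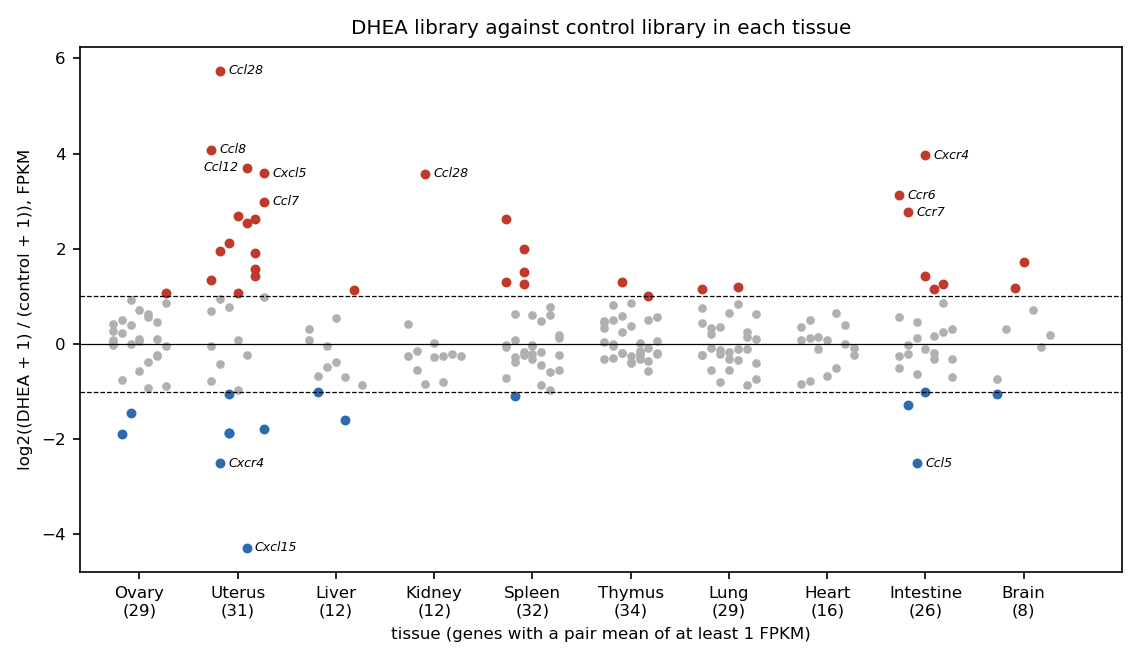
Difference between the DHEA and the control library in each tissue, as log2((DHEA + 1)/(control + 1)) of FPKM, for members whose pair mean reached 1 FPKM (number measured in brackets). Each point is 1 gene, red at 1 or above and blue at -1 or below (dashed lines), and the widest spread is in uterus, from -4.28 for Cxcl15 to 5.74 for Ccl28.

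The uterus pair held 15 members higher in DHEA, where 7.76% of all genes were, and 6 lower, where 9.99% of all genes were, of 31 measured. The median difference was 0.99 for the members and -0.12 for all genes. All 4 monocyte-attracting ligands, the eotaxin Ccl11, the neutrophil ligand Cxcl5 and 5 of 5 measured myeloid receptors were higher. Scaling the libraries to the same FPKM sum moved the ratios of the uterus up by 0.24.

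The 4 monocyte-attracting ligands lie next to each other with Ccl11 and Ccl1 in a run of chemokine genes on chromosome 11 (RefSeq order, GRCm38). In the uterus, Ccl8 was at 6.83 FPKM in control against 131 in DHEA (19.2-fold, 14.7 to 25.6), and Ccl12 at 0.929 and 24.0 FPKM (25.9-fold, 12.9 to 60.5). Ccl7 was at 0.701 and 12.5 FPKM (17.8-fold, 9.22 to 39.6), and Ccl2 at 0.493 and 3.0 (6.09-fold, 3.03 to 13.9). Ccl11, which attracts eosinophils through Ccr3, was at 6.40 and 46.9 FPKM (7.33-fold, 6.02 to 8.99). Ccl1 was at 0.0263 FPKM in control and at 0 in DHEA, so of the 6 neighbours 5 were higher. In the other tissues the same 5 genes were not 2-fold higher except Ccl8 in ovary, and Ccl2 in liver and Ccl11 in ovary were 2-fold lower. The promoters of Ccl8 and Ccl12 are shown because both genes had their highest level and their largest difference in the same library. The capitals mark a TATAAA box that starts 32 bases before the start of Ccl8 and 31 bases before that of Ccl12.
Ccl8 promoter, chr11:82114935-82115234, plus strand, GRCm38.p6: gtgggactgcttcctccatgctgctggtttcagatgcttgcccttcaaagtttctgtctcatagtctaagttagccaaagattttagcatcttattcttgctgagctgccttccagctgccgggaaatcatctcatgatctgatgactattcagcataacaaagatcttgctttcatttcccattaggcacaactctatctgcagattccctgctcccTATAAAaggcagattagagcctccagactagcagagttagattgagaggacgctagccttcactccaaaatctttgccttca
Ccl12 promoter, chr11:82101595-82101894, plus strand, GRCm38.p6: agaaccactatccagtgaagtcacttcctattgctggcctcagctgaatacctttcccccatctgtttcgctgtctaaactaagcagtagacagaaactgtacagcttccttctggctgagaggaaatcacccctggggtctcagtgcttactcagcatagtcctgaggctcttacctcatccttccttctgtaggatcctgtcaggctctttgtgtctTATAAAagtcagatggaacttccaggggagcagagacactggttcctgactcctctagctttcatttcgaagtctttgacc

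A promoter was listed for 43 of the 56 members, 50 in all, of 300 bases each. TATAAA was found on either strand in 13 of these 50 (26%) and in 13.6% of all 32851 promoters of the table. The AP-1 motif TGANTCA was in 9 of 50 and 7.81% of all, the STAT motif TTCNNNGAA in 3 of 50 and 8.30% of all, and the IRF motif GAAANNGAA in 8 of 50 and 8.56% of all. The NF-kB motif was in 12 of 50 and 8.46% of all. Motifs were searched on both strands and may overlap one another, and a match is only a run of letters. None of the other 4 motifs was found in these windows of Ccl8 and Ccl12.

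On the log2(FPKM + 1) scale, the largest difference of any member was the 5.74 of Ccl28, a mucosal chemokine that attracts Ccr10- and Ccr3-bearing cells. It was at 0.644 FPKM in the control uterus and 86.7 in the DHEA uterus (135-fold, 102 to 182, from 50 and 8595 reads). It was also the only member called in kidney on that scale, where 1.07% of all genes were higher and 0.635% lower, at 0.947 FPKM in control against 22.3 in DHEA (23.5-fold, 18.8 to 29.7). In the intestine, the tissue with its next highest level, it was at 4.97 and 6.45 FPKM. Its receptor Ccr10 was at 0.361 and 0.283 FPKM in uterus. Its promoter is shown because the gene was apart in 2 tissues, and the capitals mark an AP-1 motif that starts 21 bases into the transcribed part.
Ccl28 promoter, chr13:119623569-119623868, plus strand, GRCm38.p6: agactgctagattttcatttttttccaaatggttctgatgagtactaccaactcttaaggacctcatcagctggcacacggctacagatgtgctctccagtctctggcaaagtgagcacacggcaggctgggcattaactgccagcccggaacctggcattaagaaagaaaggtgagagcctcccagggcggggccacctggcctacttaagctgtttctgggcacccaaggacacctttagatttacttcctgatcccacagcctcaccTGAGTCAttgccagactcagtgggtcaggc

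Cxcl5 in the uterus was at 0.234 and 13.8 FPKM (59.1-fold, 28.5 to 147.7, from 7 control reads). Ccl6 was at 9.62 and 64.6 FPKM (6.71-fold, 5.92 to 7.63), Ccl9 at 2.44 and 12.2 (5.02-fold, 4.13 to 6.14) and Cxcl16 at 6.85 and 28.3 (4.14-fold, 3.68 to 4.67). Of the receptors, Ccr3, the receptor of eosinophils, was at 0.0572 and 5.18 FPKM (90.6-fold, 30.8 to 442, from 3 control reads) and Ccr1 at 0.352 and 4.90 (13.9-fold, 8.42 to 24.7). Cx3cr1 was at 6.91 and 19.0 FPKM (2.74-fold, 2.48 to 3.04) and Ccr2 at 3.10 and 7.63 (2.46-fold, 2.18 to 2.79).

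In the other direction, Cxcl15 was at 18.4 FPKM in the control uterus, from 629 reads, and at 0 in DHEA, at least 268-fold lower with 3 reads taken as the limit of a count of 0. Cxcr4 was at 29.3 and 4.35 FPKM (6.73-fold lower, 5.68 to 8.02), Ackr4 at 5.49 and 0.772 (7.12-fold lower, 5.64 to 9.08) and Xcl1 at 8.82 and 1.68 (5.25-fold lower, 3.10 to 9.34). Ccl21b was at 2.44 FPKM and 0, at least 14.5-fold lower, and is among the uncertain copies. Cxcl12 was at 31.9 and 14.8 FPKM, and it was less than 2-fold lower when libraries were scaled to the same FPKM sum (-0.84 on the log2 scale).

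Markers of other cell types moved in the same uterus pair. Of 8 macrophage markers 7 were 2-fold higher and none was at 0, and their summed level was 152 FPKM in control and 522 in DHEA. Of 6 stromal markers 3 were higher (1148 and 2443 FPKM). All 6 adipocyte markers were lower (1249 and 187 FPKM), as were 6 of 8 endothelial markers (253 and 96.5 FPKM) and 2 of 5 measured NK cell markers (24.1 and 7.54 FPKM). Of the 4 eosinophil markers, only Il5ra reached the pair mean and was higher, at 0 and 2.32 FPKM, Epx was at 0 in both libraries, and the sums were 0.878 and 4.0 FPKM. Of 8 neutrophil markers 4 were measured and Retnlg was higher, at 0.315 and 76.6 FPKM, with Camp and Ngp at 0 in DHEA and sums of 13.9 and 90.5 FPKM. Of 5 epithelial markers only Krt18 was 2-fold apart, and it was lower (1096 and 1142 FPKM in sum over the 5). Of the 4 uterus markers used to check the tissue label, 3 were measured. These were Hoxa11, Hoxa10 and Wnt7a, and all 3 were lower (177 and 77.3 FPKM over the 4 listed). The part of these cell types in the chemokine differences was not tested. The signalling list had 5 of 34 measured genes higher and 0 lower, among them Lyn, Was and Pik3cg, and the interferon gamma list 0 of 14 in either direction.

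**Figure D4:**
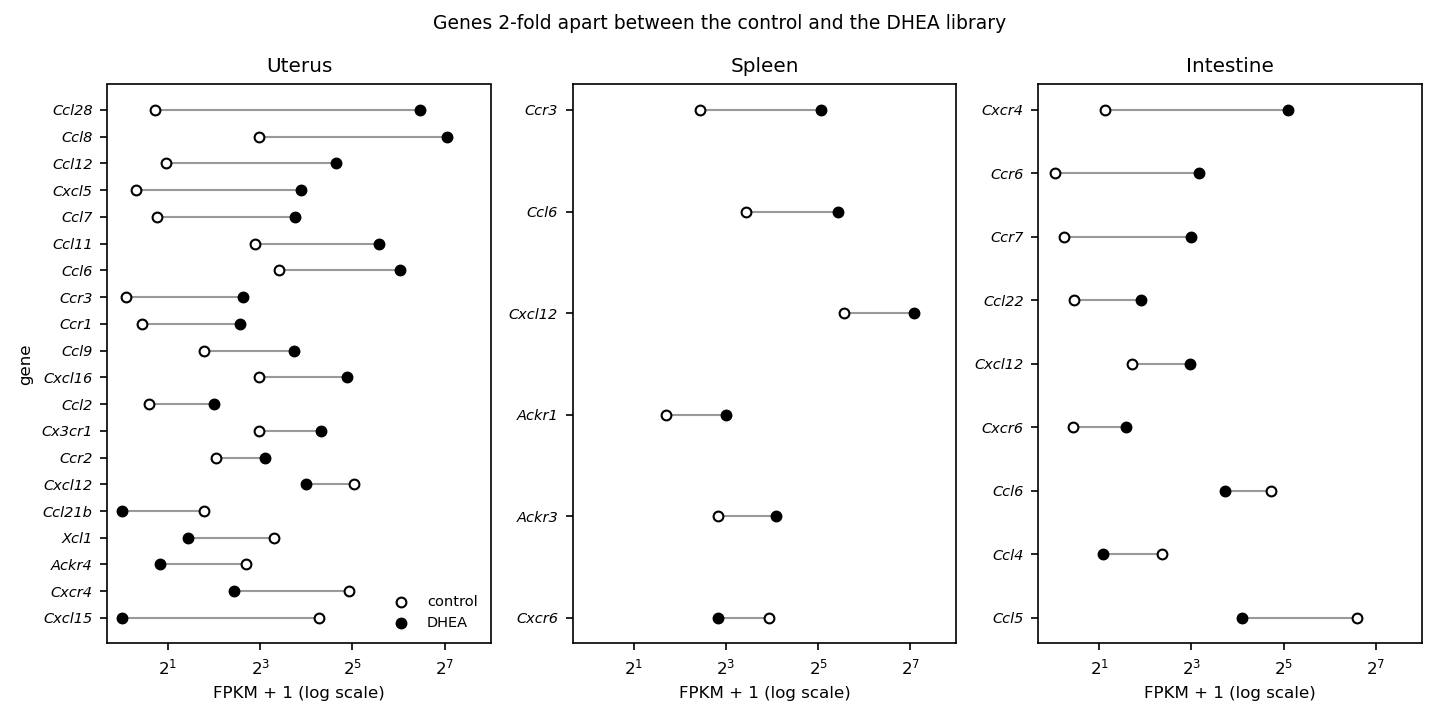
Members 2-fold apart between the control (open circle) and the DHEA library (filled circle) of uterus, spleen and intestine, as FPKM + 1 on a log2 axis, 1 library per circle. The uterus panel draws 14 of the 15 members higher and all 6 lower in DHEA, the spleen panel 5 and 1, and the intestine panel 6 and 3.

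In the intestine, 6 of 26 measured members were higher in DHEA, where 11.9% of all genes were, and 3 lower, where 2.51% were. The higher ones were mainly lymphocyte receptors. Cxcr4 was at 1.18 and 33.0 FPKM (27.9-fold, 19.6 to 41.1) and Ccr7 at 0.169 and 6.96 (41.2-fold, 17.3 to 128.4, from 5 control reads). Ccr6 rested on 1 control read and 249 DHEA reads, 0.0288 and 7.99 FPKM (277-fold, 49.3 to 10993). Cxcr6 was at 0.346 and 2.0 FPKM, the ligand Ccl22 at 0.374 and 2.72 and Cxcl12 at 2.30 and 6.88. Cxcr6 lost its 2-fold difference when ratios were centred on the tissue's median (0.94). Lower in DHEA were Ccl5, at 95.4 and 16.0 FPKM (5.94-fold, 5.13 to 6.91), Ccl4, at 4.15 and 1.13 (3.68-fold, 1.81 to 8.24), and Ccl6, at 25.6 and 12.2. Ccl6 was 0.92 lower on the log2 scale after scaling to the same FPKM sum. Ccl25 and Ccl20, the epithelial ligands of this organ, were less than 2-fold apart.

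All 6 B cell markers were 2-fold higher in the DHEA intestine, with a summed level of 6.51 FPKM in control and 406 in DHEA. Of 8 T cell markers 3 were higher and Cd8a was lower (34.7 and 59.0 FPKM in sum), and Gzma and Nkg7, the measured NK cell markers, were lower (221 and 59.6 FPKM over all 6, with Ncr1 at 0 in both). All 5 markers of exocrine pancreas were higher, 4.78 and 231 FPKM in sum. The signalling list had 13 of 35 measured genes higher and 0 lower, among them Rac2, Dock2, Vav1 and Jak3. The part of these cells in the receptor differences was not tested.

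In the spleen, 5 of 32 measured members were higher in DHEA, where 5.8% of all genes were, and 1 was lower, where 1.13% were. Ccr3 was at 4.46 and 32.6 FPKM (7.31-fold, 6.39 to 8.38) and Ccl6 at 9.76 and 42.2 (4.32-fold, 3.81 to 4.92). Cxcl12 was at 46.6 and 134 FPKM (2.88-fold, 2.80 to 2.96), with its scavenger Ackr3 at 6.15 and 16.0 and Ackr1 at 2.26 and 7.04. Cxcr6 was lower, at 14.2 and 6.12 FPKM (2.32-fold, 1.96 to 2.76). The eosinophil markers Prg2 and Epx were higher (sum of the 4 markers 10.7 and 52.1 FPKM), as were 8 of 8 neutrophil markers (169 and 1237 FPKM), 5 of 5 erythroid markers (168 and 1369 FPKM) and 7 of 8 macrophage markers (468 and 1146 FPKM). Of 7 measured endothelial markers Kdr, Tie1 and Tek were higher (90.2 and 141 FPKM over the 8 listed). The 5 pancreas markers were higher too, with Ctrb1, Cpa1 and Cela3b at 0 in control and sums of 0.1 and 36.2 FPKM. Of 8 T cell markers Cd3g was lower and none higher (420 and 267 FPKM in sum). None of 6 B cell markers was 2-fold apart (1881 and 1387 FPKM). Of 6 NK cell markers Ncr1 and Gzma were higher (87.7 and 124 FPKM), and of 5 measured stromal markers Dcn was lower (78.8 and 82.5 FPKM over the 6 listed). The part of these cells was not tested.

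The brain had 2 of 8 measured members higher, where 4.81% of all genes were, and 1 lower, where 5.91% were. Cx3cl1 was at 65.0 and 217 FPKM (3.33-fold, 3.23 to 3.44), Ccl27a at 8.76 and 21.1 (2.41-fold, 2.14 to 2.71) and Ackr1 at 41.8 and 19.6 (2.13-fold lower, 1.91 to 2.37). Cx3cr1 was at 8.16 and 14.1 FPKM and did not reach 2-fold. Of the 5 microglia markers none was 2-fold apart (19.9 and 25.3 FPKM in sum), nor was any of 8 endothelial markers (62.7 and 54.4 FPKM). Other markers were lower in the same pair: both measured dendritic cell markers, Flt3 and Zbtb46 (12.9 and 3.44 FPKM over the 6 listed), both measured epithelial markers, Cdh1 and Krt18 (8.20 and 2.01 over the 5 listed), and Ttr, a transport protein of liver and choroid plexus (1215 and 209.9). Of the 4 brain markers Neurod6 was higher and Mbp lower (1064 and 735 FPKM in sum). The part of these cells was not tested. The difference of Ackr1 was 0.98 on the log2 scale after centring on the median and so fell below 2-fold.

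The ovary had Ccl8 higher, where 2.13% of all genes were, and Cxcl12 and Ccl11 lower, where 2.55% were, of 29 measured. Cxcl12 was at 54.7 and 14 FPKM (3.91-fold lower, 3.72 to 4.13), Ccl11 at 3.41 and 0.616 (5.54-fold, 2.84 to 12.1) and Ccl8 at 2.62 and 6.65 (2.54-fold, 1.55 to 4.28). The liver had Ccl6 higher (1.32% of all genes), at 4.83 and 11.8 FPKM. Cxcl9 and Ccl2 were lower there (2.08% of all genes), Cxcl9 at 8.70 and 2.23 FPKM (3.90-fold, 3.15 to 4.86) and Ccl2 at 2.15 and 0.563. Among the interferon gamma list, Gbp2, Gbp3 and Iigp1 were lower in the same liver pair, 3 of 11 measured. Ccl2 in liver was 0.95 lower on the log2 scale after scaling to the same FPKM sum.

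In the thymus, where 1.59% of all genes were higher and 0.302% lower, Ackr4 (2.89 and 8.58 FPKM, 2.97-fold, 2.60 to 3.40) and Ccl17 (3.38 and 7.77, 2.30-fold, 1.51 to 3.57) were higher and 0 of 34 members lower. All 5 measured adipocyte markers were higher in that library (72.1 and 374 FPKM over the 6 listed), and their part was not tested. Ccl17 was at 0.93 after centring. In the lung, where 1.35% of all genes were higher and 0.818% lower, Ccl6 (46.5 and 108 FPKM, 2.32-fold, 2.18 to 2.46) and Ccr1 (2.44 and 6.64, 2.72-fold, 2.21 to 3.36) were higher and 0 of 29 lower. The 3 measured neutrophil markers were higher in the same pair, with sums of 75.3 and 500 FPKM over the 8 listed. The lung ratios moved up by 0.23 when scaled to the same FPKM sum. In the heart, 0 of 16 measured members were apart, beside 0.533% of all genes higher and 0.475% lower, with Cxcl12 at 27.8 and 44.4 FPKM and Ackr3 at 26.9 and 38.6.

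Ccl6 was thus 2-fold higher in uterus, spleen, lung and liver and 2-fold lower in intestine, the most tissues for any member, and it was close to level in heart, at 13.3 and 12.5 FPKM. Cxcl12 was 2-fold lower in ovary and uterus and 2-fold higher in spleen and intestine. Whether a difference in 1 tissue differs from that in another was not tested, because each rests on 1 pair of libraries.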

How the data were processed

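The authors deposited a table of FPKM values with 1 column for each of 20 libraries and 1 gene symbol for each of 24826 lines, and a table of log2 fold values of DHEA over control. Per the submitters' processing notes, HISAT2 2.0.5 was used, and the builds named are hg38 and mm39. The sources used here do not give the counting tool, annotation, strand setting or treatment of reads matching several genes. The 28 symbols on more than 1 line (57 lines) were left out. For 100% of the 24769 genes kept, values were whole multiples of 1 read at a relative tolerance of 1e-11, which gave the reads behind exact Clopper-Pearson 95% intervals and a limit of 3 reads for a count of 0. Both cover counting error only.

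limma 3.58.1 (R 4.3.3) was fitted to log2(FPKM + 1) with tissue and treatment as terms, with eBayes trend and Benjamini-Hochberg adjustment over the 14833 genes whose mean reached 1 FPKM. The procedure was tested on simulated data. Ratios on this scale understate differences of low genes. The members, lists, roles and tests were chosen with earlier results of these data known. Members past 10 FPKM or past a call were named with values, up to 8 a direction and tissue in full, and other genes only from fixed lists of cell types, signalling, related chemokines and the interferon gamma response. Promoters (250 bases before to 50 after the start) came from RefSeq, GRCm38.p6, and 43 of 56 members matched. Ccl11, Ccl2, Ccl24, Ccl26, Ccl4, Ccl5, Ccl7, Ccr10, Ccr7, Cxcl11, Cxcl16 and Cxcl5 were among those with none there. A few genes that are part of the counts are not reported by name here. Alternatives changed the pseudocount, filter, scaling, trend, size limit, tissues and libraries used.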

Additional observations from a re-analysis of the deposited data

Results flagged for a closer look

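For 15 of 39 tested members, the log2 ratio of 1 tissue lay apart from those of the other 9 tissues by Dixon's criterion for 10 values. Chance gives such a gap in about 1 of 20 groups, and the tissues are different organs rather than replicates. The share of all tested genes past this criterion is not given here, so the count has no background beside it. In 9 of the 15 that tissue was the uterus. There Ccl2 (1.42), Ccl7 (2.99), Ccl8 (4.08), Ccl12 (3.70), Cxcl5 (3.59), Cxcl16 (1.90) and Ccr2 (1.07) were the highest of the 10 tissues, and Cxcl15 (-4.28) and Xcl1 (-1.87) the lowest. In the intestine, Cxcr4 (3.96), Ccr6 (3.13), Ccr7 (2.77) and Ccl22 (1.44) were the highest and Ccl5 (-2.50) was the lowest. Ccl20 was lowest in the lung at -0.43, a difference between 0.457 and 0.0835 FPKM that rests on 12 and 2 reads.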

How the results depend on the processing

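The 76 calls of a member higher in a tissue became 35 with a filter at a mean of 5 FPKM, which left 15 instead of 40 members tested. They became 36 with a limit of 4-fold and 100 with a pseudocount of 0.1. They ranged from 63 to 84 when a tissue pair or a library was left out. The 35 pairs higher in DHEA became 23 with a pair mean of 5 FPKM, where fewer members were measured (18 instead of 31 in uterus). Their count ranged from 20 (without the uterus) to 35 when a tissue was left out. The 15 lower pairs became 25 with a pseudocount of 0.1 and ranged from 9 (without the uterus) to 15. Of the 50 called pairs, 50 stayed 2-fold apart in the same direction with a pseudocount of 0.1, 46 with the same FPKM sum, 47 with that sum without mitochondrially encoded and top 50 genes, 45 after centring and 33 with a pair mean of 5. No call reversed under these settings. The DHEA comparison across tissues called 0 members under each setting, with a lowest adjusted p of 0.575 to 0.823 in limma. Of the 15 members in the authors' deposited table, 5 of 150 values differed in sign from the FPKM ratio. Within a tissue the deposited values lay apart from that ratio by the same amount for each member. The amount was 0.238 in uterus, 0.229 in lung and -0.0686 in kidney. Scaling to the same FPKM sum shifted the ratios by nearly the same, 0.238, 0.229 and -0.0684. The cause of each move between settings was not tested, except that the higher filters leave fewer genes. Members below 1 FPKM and genes with few control reads are limited by depth. The DHEA comparison across tissues was paired by tissue through the tissue term. Within a tissue no paired analysis could be made, with 1 library per group.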
